A study of Mus musculus with 6 samples.

Results

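The nuclear genes of oxidative phosphorylation were followed in tissue from the back of the eye, the retinal pigment epithelium (RPE) together with the underlying choroid and sclera, of 5XFAD and wild-type mice. Members were taken from the platform annotation as genes with a single symbol beginning Nduf (followed by a, b, c, s or v), Uqcr, Cox (numbers 4 to 8) or Atp5, or being Sdha, Sdhb, Sdhc or Sdhd. This gave 89 of the 22180 genes measured. They comprised 79 named as subunits (34 of complex I, 4 of complex II, 7 of complex III, 17 of complex IV and 17 of complex V), 8 complex I assembly factors of the Ndufaf series and 2 pseudogenes. A further 10 probe sets that carried such a symbol beside another were left unnamed and unused. The 5XFAD group holds 3 samples from heterozygotes aged 12 months, whose transgenes carry familial Alzheimer's disease mutations and are driven in neurons by a Thy1 promoter. The wild-type group holds 3 samples from littermates of the same age without the transgenes, and the labels give no further allele, agent, strain or sex. Each sample was hybridised to 1 Affymetrix array, and the comparison made here is whether transcripts of the respiratory chain differ between the genotypes.

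In the inner mitochondrial membrane, complexes I and II pass electrons from NADH and succinate to ubiquinone, complex III passes them to cytochrome c, and complex IV, cytochrome c oxidase, passes them to oxygen. Complex V, the ATP synthase, uses the resulting proton gradient to make ATP. Most subunits are encoded in the nucleus and a few in mitochondrial DNA. Several complex IV subunits exist as tissue isoforms, so that heart and skeletal muscle contain a muscle (heart) type of subunits VIa, VIIa and VIII where other tissues contain the liver type. The RPE is rich in mitochondria and oxidises lactate and fatty acids, and the extraocular muscles that attach to the sclera are highly oxidative muscles.

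Subunit promoters are known for sites of nuclear respiratory factor 1 (NRF-1) and of the ETS family factor GABP, and both motifs were present in a larger share of the members' promoters than of all promoters. RefSeq start sites (GRCm38.p6) were found for 72 of the 89 members (65 of the 79 subunits, some with several starts), and the window from 250 bases before to 30 bases after each start was searched on both strands. The 8 inner letters of the NRF-1 consensus, CGCANGCG, were found in 24 of 70 subunit promoters (34.3%) and in 7.78% of all 32851 promoters in the same window. The ETS motif CCGGAAG was found in 17 of the 70 (24.3%) and in 8.45% of all promoters. For the YY1 motif AAGATGG the share was 8.57% against 5.61%, for the estrogen-related receptor motif AAGGTCA 5.71% against 4.46%, for the E-box of muscle factors, CAGCTG, 8.57% against 14.9%, and for TATAAA 12.9% against 13.1%. Complex V held the NRF-1 letters in 10 of 18 promoters, complex I in 9 of 32 and complex IV in 1 of 13. The ETS motif can share its last letters, AAG, with the first of the YY1 and estrogen-related receptor motifs. Windows of several starts of the same gene can overlap, so a site can be counted more than once. The set of all promoters was not matched to the members for base composition. A match describes letters in the window, not a bound site. The windows below were chosen to show a muscle and liver isoform pair and promoters with NRF-1 letters in complexes II and V, and capitals mark every match to the 6 motifs.
Cox8b, the muscle type of subunit VIII (GRCm38.p6, minus strand, chr7:140900417-140900696): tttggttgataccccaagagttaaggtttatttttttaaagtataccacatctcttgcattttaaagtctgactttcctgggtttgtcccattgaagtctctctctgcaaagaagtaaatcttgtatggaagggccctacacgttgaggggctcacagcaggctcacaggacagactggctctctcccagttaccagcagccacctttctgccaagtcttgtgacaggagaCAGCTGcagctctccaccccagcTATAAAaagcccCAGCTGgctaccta
Cox8a, the liver type (minus strand, chr19:7217587-7217866): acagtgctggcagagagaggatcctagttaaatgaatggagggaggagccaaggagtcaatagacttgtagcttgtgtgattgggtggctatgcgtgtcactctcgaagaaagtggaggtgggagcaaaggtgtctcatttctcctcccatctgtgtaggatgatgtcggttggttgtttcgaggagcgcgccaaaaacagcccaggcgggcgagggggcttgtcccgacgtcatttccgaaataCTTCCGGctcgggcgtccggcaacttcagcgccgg
Sdha, the flavoprotein of complex II (minus strand, chr13:74350211-74350490): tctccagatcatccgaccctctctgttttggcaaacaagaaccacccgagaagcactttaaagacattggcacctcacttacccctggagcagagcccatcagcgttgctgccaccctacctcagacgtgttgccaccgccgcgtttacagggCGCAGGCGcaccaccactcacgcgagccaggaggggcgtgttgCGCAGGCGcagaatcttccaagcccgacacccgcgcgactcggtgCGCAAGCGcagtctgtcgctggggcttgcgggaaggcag
Atp5k, subunit e of complex V (minus strand, chr5:108434370-108434649): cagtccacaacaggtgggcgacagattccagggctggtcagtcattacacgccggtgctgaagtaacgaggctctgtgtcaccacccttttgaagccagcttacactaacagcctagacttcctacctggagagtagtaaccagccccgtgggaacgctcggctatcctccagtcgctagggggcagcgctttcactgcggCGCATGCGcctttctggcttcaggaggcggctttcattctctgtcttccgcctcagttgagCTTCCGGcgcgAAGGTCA
The Cox8b window held 2 E-boxes, 1 before the start and 1 beyond it, and a TATAAA that also lay beyond the start. The Cox8a window held 1 ETS motif and no E-box or TATAAA. Sdha held the NRF-1 letters 3 times, and Atp5k held them once, with 1 ETS and 1 estrogen-related receptor motif beyond the start. The other muscle and liver pair with both promoters in the table, Cox7a1 and Cox7a2, had none of the 6 motifs.

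The arrays were alike and their number limits precision. Array medians lay between 5.59 and 5.71 log2 units, and correlations between arrays over all probe sets lay between 0.981 and 0.990. The labels do not say that samples came from separate animals or whether animals were pooled, so the p-values cover the spread among these 6 samples, which may be technical. The 12 RPE markers lay at a median percentile of 98.8 of all genes. The median percentile was 64.8 for the 12 skeletal muscle markers, 27.0 for the 4 brown fat markers (Ucp1 28.6) and 33.4 for the 4 white fat markers, which ranged from 10.6 for Adipoq to 82.9 for Fabp4. In bulk tissue, fewer cells of a type and less RNA per cell cannot be told apart.

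Transcripts of the nuclear subunits differed little between 5XFAD and wild-type tissue, and 0 of the 89 members had a Benjamini-Hochberg adjusted p under 0.05 (limma, lowest 0.61). Over all genes 5 had, a share of 0.0225%. The mean of the 79 subunits was 8.05, 8.20 and 7.98 log2 units in 5XFAD replicates 1 to 3 and 8.03, 8.17 and 8.004 in wild type. The groups overlapped. The median difference, 5XFAD minus wild type, was 0.02 over the subunits, beside -0.0092 over all genes. Above wild type were 46 of the 79 subunits (58.2%) and 47.2% of all genes, the share beside which the counts of each complex and list stand. Subunits shared a pattern across the arrays, described below, so their signs are not independent. At an unadjusted p under 0.05, limma gave 1 member higher (Cox5b) and 1 lower (Ndufb11), where 2.89% and 3.39% of all genes were higher and lower. The 3 values of one group lay wholly above those of the other in 5 members, 2 higher (Cox5b, Ndufb8) and 3 lower (Ndufa1, Atp5k, Atp5md) in 5XFAD. Over all genes such separation occurred in 4.72% (higher) and 6.62% (lower), so both kinds of count lay below the share over all genes. Leaving out 1 array at a time gave 1 to 3 members higher at an unadjusted p under 0.05 (3 without wild type replicate 3) and 0 to 5 lower (5 without 5XFAD replicate 2). Over all genes it left 3 (without wild type replicate 3) to 19 (without wild type replicate 2) past the adjusted threshold. The median difference of the 79 subunits then ran from -0.05 (without 5XFAD replicate 2) to 0.06 (without wild type replicate 2).

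The size of change that these arrays leave possible was read from the 95% confidence intervals of the single-gene differences. For 72 of 79 subunits (91.1%) the interval lay within a 1.5-fold change in either direction, as it did for 89.5% of all genes. The 7 others were Ndufb11 and Ndufb9 of complex I, Cox5b, Cox6a2, Cox7a1 and Cox6b2 of complex IV, and Atp5d of complex V. The subunits were bright, with a median percentile of 87.0. The pseudogenes Uqcrh-ps1 and Atp5c1-ps were among the dimmest features, at a median percentile of 6.34, and neither passed (adjusted p = 0.90 or more by Benjamini-Hochberg, limma).

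**Figure D1:**
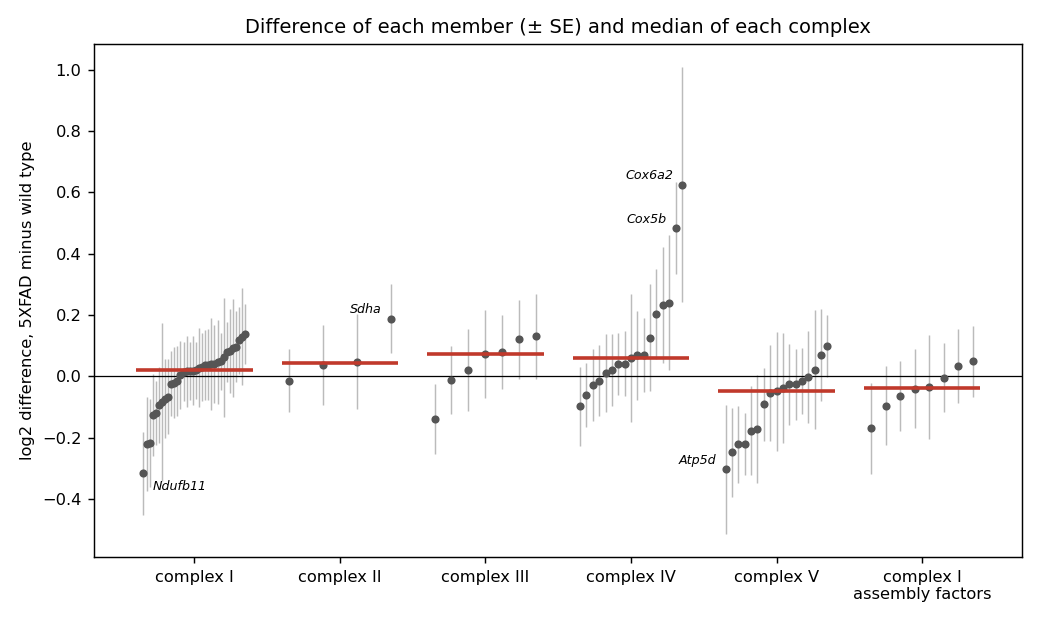
Log2 difference, 5XFAD minus wild type, of each subunit and complex I assembly factor (points; bars are ± SE from limma), grouped by complex and sorted within it, with the median of each group as a red line. Medians run from -0.05 in complex V to 0.07 in complex III, and Cox6a2 and Cox5b lie highest.

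In complex I, the NADH dehydrogenase and largest of the complexes, 22 of 34 genes were above and 12 below wild type, with a median difference of 0.02 and a range of -0.32 to 0.14. Leaving out 5XFAD replicate 2 turned this median to -0.05, and it was also below 0 without wild type replicate 1 or 3. Its highest value was 0.06, without wild type replicate 2. Ndufb11, an accessory subunit of the membrane arm, read 5.28, 5.35 and 5.69 in 5XFAD and 5.81, 5.87 and 5.58 in wild type. The third array of each group lay close to the other group, and the groups overlapped. The difference was -0.32 ± 0.14 (log2, ± SE; limma, unadjusted p = 0.044, Benjamini-Hochberg adjusted p = 0.78). Ndufa7 and Ndufa3, small accessory subunits, differed by -0.22 ± 0.14 and -0.22 ± 0.15 (limma, Benjamini-Hochberg adjusted p = 0.92 for both). In both, 5XFAD replicate 3 was the lowest array, at 7.22 for Ndufa7 and 9.72 for Ndufa3. Ndufb8 was higher in every 5XFAD array than in any wild-type array and Ndufa1 lower, by 0.14 ± 0.10 and -0.12 ± 0.10 (limma, Benjamini-Hochberg adjusted p = 0.92 and 0.93). The complex I names include Ndufa4, now placed in complex IV, and its paralog Ndufa4l2.

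The 8 Ndufaf genes, whose products help to build complex I and are not part of it, had a median difference of -0.04, with 2 above and 6 below wild type. Without wild type replicate 2 the median was 0.01, and without wild type replicate 3 it was -0.09. Ndufaf2 differed by -0.17 ± 0.15, Ndufaf5 by -0.10 ± 0.13 and Ndufaf7 by -0.06 ± 0.11 (limma, lowest Benjamini-Hochberg adjusted p = 0.93). All 8 intervals lay within 1.5-fold.

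Complex II, succinate dehydrogenase, which also serves the citric acid cycle, had a median difference of 0.04 over its 4 genes, which ran from -0.05 without 5XFAD replicate 2 to 0.16 without 5XFAD replicate 3 and was -0.04 without wild type replicate 3. Sdha, the catalytic flavoprotein, read 10.09, 10.12 and 10.05 in 5XFAD and 9.82, 10.10 and 9.79 in wild type. Wild type replicate 2 alone reached the 5XFAD values. The difference was 0.19 ± 0.11 (limma, Benjamini-Hochberg adjusted p = 0.90). The membrane anchors Sdhc and Sdhd differed by 0.05 ± 0.15 and 0.04 ± 0.13, less than the spread between replicates.

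Complex III, the cytochrome bc1 complex, had 5 of 7 genes above wild type and a median difference of 0.07, which ran from -0.03 without 5XFAD replicate 2 to 0.15 without 5XFAD replicate 3 and was -0.0050 without wild type replicate 1. The core proteins Uqcrc1 and Uqcrc2 differed by 0.13 ± 0.14 and 0.12 ± 0.13, and Uqcrh, the hinge protein that contacts cytochrome c1, by -0.14 ± 0.11 (limma, Benjamini-Hochberg adjusted p = 0.94, 0.94 and 0.93). All 7 intervals lay within 1.5-fold.

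Complex IV held both of the largest positive differences, and 13 of its 17 genes were above wild type, with a median of 0.06. That median ran from -0.0038 without wild type replicate 3 to 0.10 without wild type replicate 2. Cox5b, a matrix-side subunit, read 9.10, 9.38 and 9.35 in 5XFAD and 8.53, 9.08 and 8.77 in wild type, so that all 5XFAD arrays were higher. The smallest gap was between 5XFAD replicate 1 and wild type replicate 2. The difference of 0.48 ± 0.15, 1.40-fold, had an interval of 0.15 to 0.82 and did not pass (limma, unadjusted p = 0.0099, Benjamini-Hochberg adjusted p = 0.61). A second, dim probe set named Cox5b read 4.54, 4.71 and 4.51 against 4.74, 4.61 and 4.64, a difference of -0.07, and with the mean of both probe sets the difference was 0.21. Cox5a, the other matrix-side subunit, read 8.61, 8.40 and 8.19 against 8.14, 8.44 and 8.01 with overlapping groups, a difference of 0.20 ± 0.15 (limma, Benjamini-Hochberg adjusted p = 0.92).

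Complex V was the group with the most members below wild type, 14 of 17, where 11702 of all 22180 genes were below. Its median difference was -0.05, beside -0.0092 over all genes. Atp5k, encoding the small membrane subunit e, read 8.77, 8.96 and 8.76 in 5XFAD and 9.11, 9.02 and 9.03 in wild type, with no overlap. The difference was -0.22 ± 0.10 (limma, unadjusted p = 0.057, Benjamini-Hochberg adjusted p = 0.81). Atp5md, encoding a small subunit of the membrane part, read 10.22, 10.25 and 9.86 against 10.26, 10.43 and 10.30, again with no overlap, though 5XFAD replicate 2 and wild type replicate 1 lay close. Its difference was -0.22 ± 0.13 (limma, Benjamini-Hochberg adjusted p = 0.89). Atp5e and Atp5d, subunits epsilon and delta of the central stalk, differed by -0.25 ± 0.15 and -0.30 ± 0.21 (limma, Benjamini-Hochberg adjusted p = 0.89 and 0.92). Atp5d read 7.80, 7.98 and 7.05 against 7.92, 8.01 and 7.81, so that 5XFAD replicate 3 stood far below the other 5 arrays. Its second probe set read 7.82, 7.87 and 7.09 against 7.57, 8.01 and 7.59, with the same array lowest. The complex V mean in that array was 8.23, against 8.44 and 8.56 in the other 5XFAD arrays and 8.48, 8.57 and 8.45 in wild type. Without 5XFAD replicate 3 the median difference of complex V was 0.00087, and without 5XFAD replicate 2 it was -0.17.

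**Figure D2:**
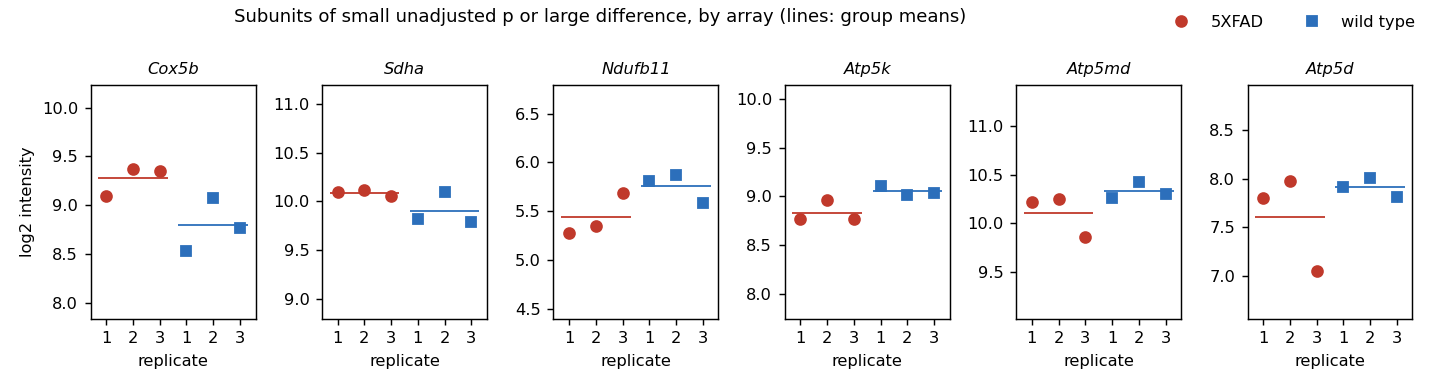
Log2 intensity of 6 subunits in each array (circles 5XFAD, squares wild type, by replicate number; lines are group means; every panel spans 2.4 log2 units). Cox5b is higher in all 5XFAD arrays, Atp5k and Atp5md are lower in all, and the Atp5d mean is drawn down by 5XFAD replicate 3.

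The annotation gave 9 members 2 probe sets each, and in 5 of them, Cox5b, Cox7b, Ndufa11, Atp5g2 and Atp5h, the 2 probe sets differed in sign. For Atp5h, a peripheral stalk subunit, the brighter probe set differed by -0.05 and the dimmer by 0.30. For Cox7b, a small subunit of complex IV, the brighter differed by 0.06 and the dimmer by -0.26. The differences were 0.04 and -0.09 for Ndufa11 and -0.03 and 0.02 for Atp5g2. Which probe set follows the gene was not tested.

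Muscle-type and liver-type subunits of complex IV were compared next. The muscle types were above wild type in the group means, by 0.63 for Cox6a2, 0.23 for Cox7a1 and 0.07 for Cox8b. The differences of the liver types lay between -0.10 and -0.01. Among the muscle types Cox6a2 varied most between arrays, while the SE of Cox8b, 0.15, was near that of its liver-type partner Cox8a, 0.13. Cox6a2, the muscle type of subunit VIa, read 7.43, 7.02 and 6.14 in 5XFAD and 5.79, 5.86 and 7.07 in wild type. Wild type replicate 3 was higher than 2 of the 5XFAD arrays. The means were 6.86 ± 0.66 and 6.24 ± 0.72 (SD, n = 3 per group), and the difference of 0.63 ± 0.38, 1.54-fold, had an interval of -0.24 to 1.49 (limma, Benjamini-Hochberg adjusted p = 0.90). Its liver-type partner Cox6a1 read 11.79, 11.95 and 11.60 against 11.73, 11.88 and 11.78, a difference of -0.01 ± 0.12 (limma, Benjamini-Hochberg adjusted p = 0.99).

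Cox7a1, the muscle type of subunit VIIa, read 6.70, 6.82 and 6.51 against 6.005, 6.53 and 6.81. Only wild type replicate 1 lay below all 5XFAD arrays, and the difference was 0.23 ± 0.19 (limma, Benjamini-Hochberg adjusted p = 0.93). Without that array it was 0.01. The liver type Cox7a2 differed by -0.03 ± 0.12, at 8.81, 9.18 and 8.999 against 9.01, 9.10 and 8.96. Cox8b, the muscle type of subunit VIII, read 8.66, 8.81 and 8.62 against 8.45, 8.95 and 8.48, a difference of 0.07 ± 0.15. Cox8a, the liver type, read 10.49, 10.77 and 10.46 against 10.54, 10.86 and 10.62, a difference of -0.10 ± 0.13 (limma, Benjamini-Hochberg adjusted p from 0.96 to 0.98 for these 3 genes). In Cox8b and Cox8a alike, replicate 2 was the highest array of each group.

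The change of a muscle type relative to its liver-type partner was taken within each array, as the difference of their log2 values minus its mean over the 6 arrays. For Cox6a2 relative to Cox6a1 this was 0.88, 0.30 and -0.23 in 5XFAD and -0.70, -0.78 and 0.53 in wild type. The group difference was 0.64 (exact two-sided permutation test, p = 0.3), and it ran from 0.36 without 5XFAD replicate 1 to 1.06 without wild type replicate 3. For Cox7a1 relative to Cox7a2 the values were 0.33, 0.10 and -0.04 against -0.55, -0.13 and 0.29, a group difference of 0.26 (exact two-sided permutation p = 0.4), which ran from 0.049 without wild type replicate 1 to 0.47 without wild type replicate 3. For Cox8b relative to Cox8a they were 0.12, 0.0026 and 0.12 against -0.13, 0.05 and -0.17, a group difference of 0.17 (exact two-sided permutation p = 0.2). Leaving out 1 array at a time, this difference ran from 0.12 to 0.23. The groups overlapped in all 3 pairs. Adjusted over the 3 pairs, p was 0.4 for each in the exact permutation test, whose smallest possible p with 3 against 3 arrays is 0.1.

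Skeletal muscle transcripts varied together with Cox6a2 across the arrays. The mean of the 12 muscle markers was 7.70, 6.91 and 6.42 in 5XFAD and 5.88, 6.02 and 7.23 in wild type, with overlapping groups, and 10 of the 12 were above wild type in the group means. Cox6a2 ranked the 6 arrays in the same order as this mean, from 5XFAD replicate 1 and wild type replicate 3 down to wild type replicate 1. Among the markers, Myh1, a fast myosin heavy chain, read 8.73, 7.36 and 6.59 against 5.38, 5.08 and 6.31, and skeletal actin, Acta1, read 9.48, 8.54 and 7.75 against 6.99, 6.96 and 8.43. The differences were 1.97 ± 0.49 and 1.13 ± 0.47 (limma, Benjamini-Hochberg adjusted p = 0.44 and 0.76). Below wild type were Myh4 at -0.55 ± 0.78 and Tnnt1 at -0.02 ± 0.13. Cox7a1, Cox8b and the liver types did not rank the arrays in the order of the muscle mean. With the muscle mean as a covariate, the 5XFAD difference was 0.01 for Cox6a2, 0.04 for Cox7a1 and 0.12 for Cox8b. In the same fit the median difference was 0.05 in complex I, -0.12 in complex V and 0.04 over all subunits. The muscle mean itself differed by 0.63 between the genotypes, and this fit left 3 residual degrees of freedom. Genotype and muscle content were thus only partly separable, and the part of muscle in these differences was not tested. The heart and slow muscle markers had a median difference of 0.03, with Myh7 at 0.15 ± 0.18 and Tnni3 at 0.16 ± 0.12 above wild type and Tnni1 at -0.11 ± 0.13 and Myh6 at -0.09 ± 0.20 below. The brown fat markers had a median of 0.04, with Cidea at 0.14 ± 0.09 and Dio2 at 0.17 ± 0.13 above wild type and Elovl3 at -0.06 ± 0.14 and Ucp1, the uncoupling protein of brown fat, at -0.13 ± 0.11 below.

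**Figure D3:**
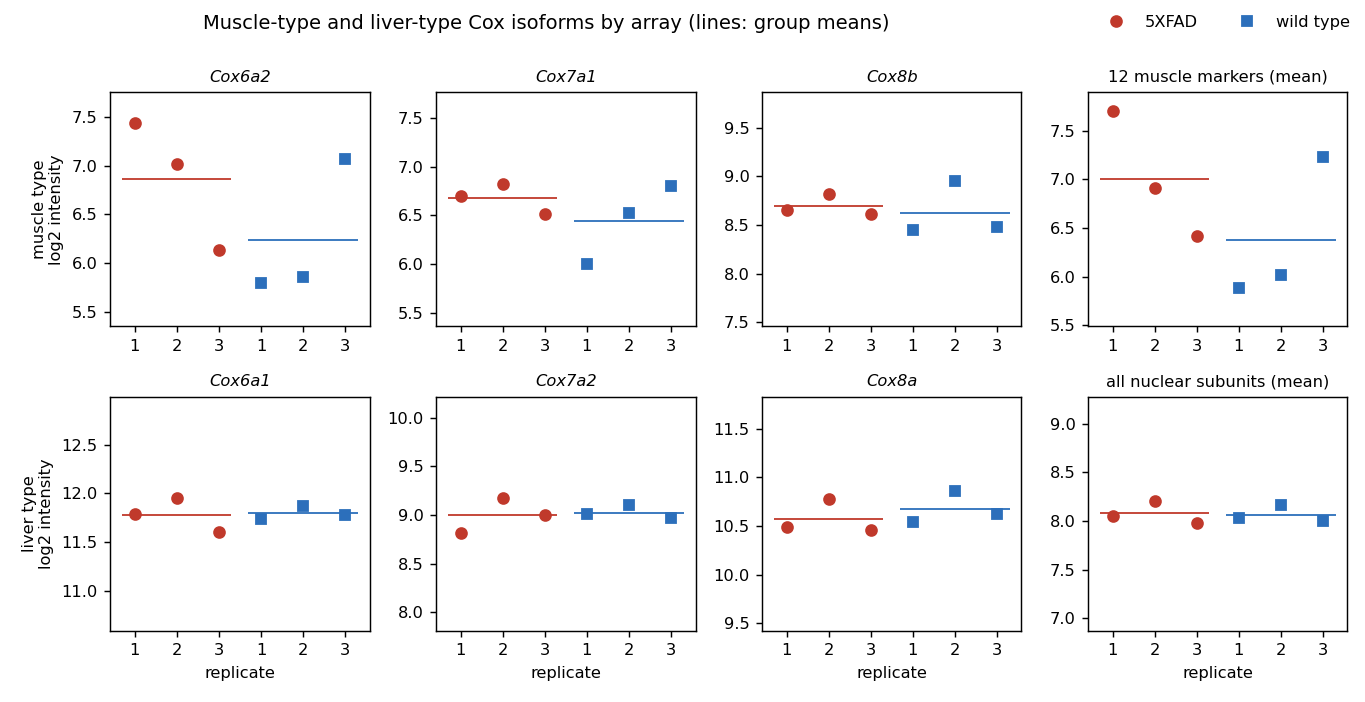
Log2 intensity by array (circles 5XFAD, squares wild type; lines are group means; every panel spans 2.4 log2 units) of the muscle-type isoforms Cox6a2, Cox7a1 and Cox8b above their liver-type partners, with the means of 12 skeletal muscle markers and of the 79 subunits at the right. Cox6a2 follows the order of the muscle markers across the arrays, with wild type replicate 3 above 5XFAD replicates 2 and 3, while the liver types stay close to their means.

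Lung and testis isoforms of complex IV did not pass the threshold either. Cox4i2, the lung isoform of subunit IV, differed by 0.02 ± 0.12. The testis isoforms Cox6b2, Cox7b2 and Cox8c differed by 0.24 ± 0.22, 0.04 ± 0.10 and 0.07 ± 0.12 (limma, lowest Benjamini-Hochberg adjusted p = 0.93 for these 4 genes). Cox6b2 read 7.45, 7.66 and 7.30 against 7.499, 7.53 and 6.66, and wild type replicate 3 alone was low. Cox7b2 and Cox8c were dim, at percentiles 9.03 and 18.5. Without the muscle, lung and testis isoforms, the 10 remaining complex IV genes had a median difference of 0.03, with 6 above wild type.

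Subunits of different complexes shared a pattern across the arrays of each genotype, with replicate 2 high. In 5XFAD, replicate 2 was the highest array for 52 of 79 subunits (65.8%) and replicate 3 the lowest for 46 (58.2%). In wild type, replicate 2 was highest for 56 (70.9%) and replicate 3 lowest for 45 (56.96%). Over all genes replicate 2 was highest in its group for 33.6% in 5XFAD and 36.8% in wild type. Among genes above the median level, which the subunits mostly are, these shares were 32.3% and 52.9%. Replicate 3 was lowest for 34.5% of all genes and 38.6% of those above the median level in 5XFAD, and for 35.3% and 49.1% in wild type. Replicate 2 was highest for 47 and 53 subunits after quantile normalization and for 52 and 68 after median centring, in 5XFAD and wild type. After quantile normalization the array most often lowest in wild type was replicate 1 (37 subunits, against 32 for replicate 3). As deviations from the mean over 6 arrays, 5XFAD replicate 2 stood at 0.12 in complex I, 0.15 in complex II, 0.17 in complex III, 0.17 in complex IV without its muscle, lung and testis isoforms, and 0.11 in complex V. Wild type replicate 2 stood at 0.11, 0.12, 0.11, 0.10 and 0.11 in the same order. The differences of the group means, -0.0053, 0.06, 0.04, 0.07 and -0.09, were smaller in size than the shift of either replicate 2.

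**Figure D4:**
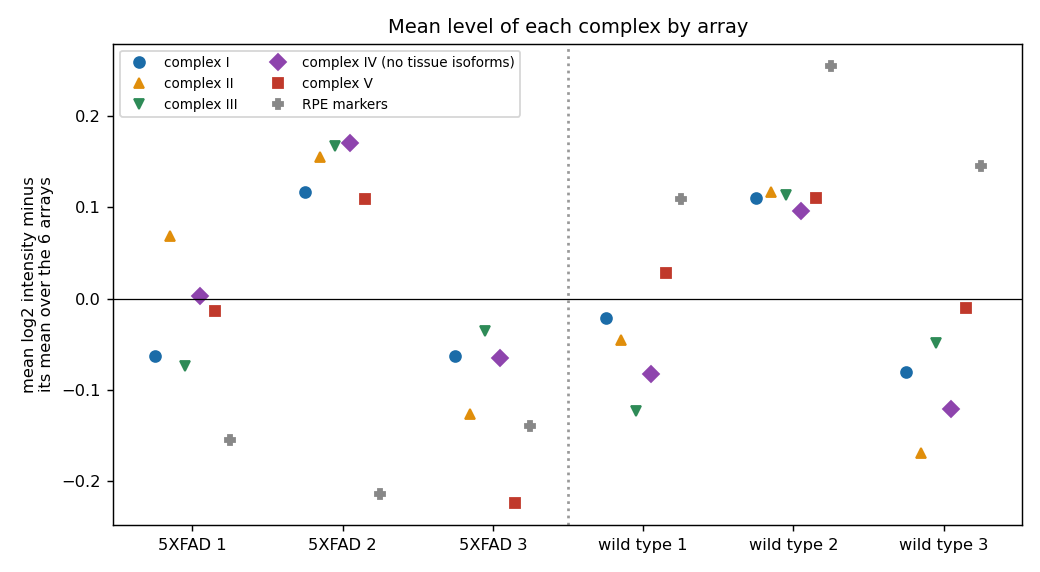
Mean log2 intensity of each complex in each array minus its mean over the 6 arrays, with the RPE markers as grey crosses and complex IV without its muscle, lung and testis isoforms. All 5 complexes are raised in replicate 2 of either genotype, whereas the RPE markers are lower in every 5XFAD array than in any wild-type array.

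The RPE marker mean was 10.29, 10.23 and 10.30 in 5XFAD and 10.55, 10.69 and 10.58 in wild type, with no overlap and 11 of 12 below wild type. Replicate 2 was thus the highest array in wild type, as for the subunits, and the lowest in 5XFAD. The RPE opsin gene Rrh differed by -0.64 ± 0.11 and the lactate transporter gene Slc16a8 by -0.61 ± 0.10 (limma, Benjamini-Hochberg adjusted p = 0.15 for both). Only Best1 was above wild type, by 0.26 ± 0.12. The median difference of the subunits in the same arrays was 0.02, against -0.37 for these markers. Surface epithelium markers, 7 genes, were on average 6.53 ± 0.40 in 5XFAD and 4.85 ± 0.08 in wild type (SD, n = 3 per group), with Krt4 at 3.21 ± 0.22 and Krt6a at 1.86 ± 0.17 (limma, Benjamini-Hochberg adjusted p = 0.0018 and 0.0093). All 7 were above wild type, but Krt12 at 0.40 ± 0.30 and Trp63 at 0.09 ± 0.12 had overlapping groups (limma, Benjamini-Hochberg adjusted p = 0.92 and 0.96). Smooth muscle markers, 4 genes, were 9.001 ± 0.34 against 8.59 ± 0.05 (SD) with no overlap, and the myosin gene Myh11 differed by 0.48 ± 0.18 and the calponin gene Cnn1 by 0.58 ± 0.25 (limma, Benjamini-Hochberg adjusted p = 0.72 and 0.78). Rod and cone markers, 11 genes, had a median of -0.15. Their mean was 6.42, 6.02 and 5.65 in 5XFAD and 6.58, 5.83 and 6.35 in wild type, with overlapping groups. Below wild type were 10 of the 11, with the cone gene Pde6c at -0.76 ± 0.16 and the disc gene Rom1 at -0.32 ± 0.10 (limma, Benjamini-Hochberg adjusted p = 0.35 and 0.64). Only Gnat2 was above, by 0.0079 ± 0.12. White fat markers had a median of 0.11, with Fabp4 at 0.37 ± 0.17, Lep at 0.23 ± 0.11, Adipoq at -0.0089 ± 0.11 and Plin1 at -0.20 ± 0.14. The part of these cell types in the subunit levels was not tested. The fits with the muscle or RPE mean as covariate cannot test it, because the RPE mean separates the genotypes and the muscle mean also differs between them.

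The subunits encoded in mitochondrial DNA were at the top of the intensity scale and slightly above wild type in their group means. All 10 measured had a positive difference, between 0.04 and 0.11, and their mean was 13.08, 13.16 and 13.12 in 5XFAD and 13.02, 13.05 and 13.06 in wild type, with no overlap. ND4L and ND2, both complex I subunits, differed by 0.11 ± 0.09 and 0.09 ± 0.09. By limma 0 of 10 passed and 0 were under an unadjusted p of 0.05 (lowest unadjusted p = 0.29, lowest Benjamini-Hochberg adjusted p = 0.93). In 5 the groups did not overlap, all higher, where 4.72% of all genes were higher without overlap. Whether these 10 genes vary independently across the arrays was not tested, so their signs and separations do not count as separate results. Their levels lay above percentile 99.3 of all genes.

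In the 6 lists of genes that act around the complexes, 0 genes passed by limma with Benjamini-Hochberg adjustment, and 3 had an unadjusted p under 0.05, 2 of them higher and 1 lower, where 2.89% and 3.39% of all genes were higher and lower. Cytochrome c (Cycs), which carries electrons to complex IV, differed by 0.05 ± 0.12, and Cyc1, which encodes cytochrome c1 of complex III, by -0.03 ± 0.18. Of 38 further assembly factors of the 5 complexes, 1 was higher and 1 lower at an unadjusted p under 0.05, a share of 5.26% that is near that over all genes, with a median of -0.00042. These were Cox16 at 0.31 ± 0.13 and Pet100 at -0.29 ± 0.13, both assembly factors of complex IV (limma, Benjamini-Hochberg adjusted p = 0.78 and 0.79). Among 16 transcriptional regulators, the nuclear receptor gene Esrrg read 6.58, 6.76 and 6.54 against 6.19, 6.48 and 6.15, higher in every 5XFAD array, a difference of 0.35 ± 0.12 (limma, unadjusted p = 0.017, Benjamini-Hochberg adjusted p = 0.68). Its relative Esrrb differed by -0.25 ± 0.16, and the 16 had a median of 0.03.

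Of 13 citric acid cycle enzymes, 10 were above wild type, with a median of 0.04. The succinyl-CoA synthetase genes had differences of opposite sign, with Sucla2, which makes ATP, at -0.19 ± 0.10 and Suclg2, which makes GTP, at 0.42 ± 0.23 (limma, Benjamini-Hochberg adjusted p = 0.85 and 0.87). Among 11 genes of ATP export and creatine kinase the median was 0.09, with mitochondrial creatine kinase Ckmt1 at -0.26 ± 0.14 and the outer membrane channel Vdac1 at 0.19 ± 0.12. The muscle creatine kinases of the list had positive differences with overlapping groups, Ckmt2 (mitochondrial) of 0.71 ± 0.51 and Ckm of 0.48 ± 0.34 (limma, Benjamini-Hochberg adjusted p = 0.92 for both). Ckm is also among the skeletal muscle markers. The ATP synthase inhibitor Atpif1 differed by 0.15 ± 0.13, and Dmac2l by 0.02 ± 0.20.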

How the data were processed

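Total RNA of the 6 samples was measured on Affymetrix mouse arrays, and the analysis started from the log2 intensities that the authors deposited. The submitters' processing notes name Affymetrix Expression Console 1.1 and RMA, which subtracts background, equalises array distributions and summarises probes, so that dim differences are compressed and an overall shift of an array is removed. Of 33793 probe sets, the platform annotation gives 23521 a single symbol, 1814 several and 8458 none. Each gene was represented by its probe set of highest mean over all arrays, which left 22180 genes, with no filter.

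The genotypes were tested with limma 3.58.1 (R 4.3.3; lmFit and eBayes, two-sided), without covariates, and p-values were adjusted by Benjamini-Hochberg across every gene, with calls at 0.05. The fit had 4 residual degrees of freedom and a prior worth 5.23. It was tested on simulated data with independent noise in each gene, which lack the pattern that subunits shared across these arrays. Lists are described by counts and medians. The members and lists were chosen with earlier results of these data known. Genes are named by rule: all Cox tissue isoforms; the 3 of smallest p in each complex and among the assembly factors; the 5 largest differences in each direction; the 2 of smallest p in each further list; and members whose probe sets differ in sign. Members with groups that do not overlap, those beyond the 1.5-fold bound and the pseudogenes are named outside that rule. So are Ckm, Ckmt2, Myh4, Tnnt1, Best1, Gnat2, Krt12, Trp63 and the remaining markers of fat, heart and slow muscle. All of these were chosen after their values were seen. Alternatives covered a replicate block, removal of the dimmest 30% or 50% of genes, quantile normalization, median centring, averaging probe sets, the muscle or RPE mean as covariate, a trended robust prior, array weights and leaving out each array.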

Additional observations from a re-analysis of the deposited data

How the results depend on the processing

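In all 16 alternatives run, 0 members passed the adjusted threshold (limma). With the replicate number as a block, 0 members were lower at an unadjusted p under 0.05, against 1 without, and 6 genes in all passed the adjusted threshold, against 5. No member's adjusted call changed. The labels name no batch shared by same-numbered samples. Correlations of their deviations from the group means were -0.06, -0.05 and 0.13, and those of unlike-numbered samples ran from -0.08 to 0.13. With 3 arrays per group, these values cannot settle whether same-numbered samples shared a batch. The same lower count was 0 with quantile normalization, with median centring and with the muscle covariate, and 3 with array weights. The higher count was 0 with averaged probe sets, and 2 with the RPE covariate and with array weights. Over all genes, passing counts were 8 without the dimmest 30% of genes, 9 with median centring, 11 with the RPE covariate, 9 with the trended robust prior and 8 with array weights. Leaving out 1 array gave 3 (without wild type replicate 3) to 19 (without wild type replicate 2) genes, 1 to 3 members higher (3 without wild type replicate 3, 2 without 5XFAD replicate 1 or 3 or wild type replicate 2) and 0 (without 5XFAD replicate 1 or wild type replicate 1) to 5 (without 5XFAD replicate 2) members lower.

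The RPE mean separates the genotypes, so with it as covariate little of the genotype difference is left to estimate. Median differences were then 0.14 in complex I, 0.24 in complex III, 0.18 in complex IV, -0.19 in complex V, 0.55 for the muscle-type isoforms, 0.11 for the mitochondrially encoded subunits and 0.13 for all subunits, and Cox6a2 relative to Cox6a1 turned to -0.38. Under it Cox6a2 turned to -0.44, Cox8a to 0.18, Cox7b2 to -0.33, Ndufb11 to 0.14, Uqcrh to 0.023, Ndufaf2 to 0.69 and Ndufa11 to -0.25. With the muscle covariate, Cox7a1 relative to Cox7a2 turned to -0.0024 and Cox7a2 to 0.042. Averaged probe sets turned Atp5h to 0.12, Cox7b to -0.10 and Ndufa11 to -0.026, and array weights turned Cox6a1 to 0.019 and Cox4i2 to -0.029. Leaving out 1 array in turn gave both signs for 14 genes: Cox8b -0.021 to 0.23, Cox6a1 -0.10 to 0.076, Cox7a2 -0.12 to 0.063, Cox4i2 -0.057 to 0.080, Cox6b2 -0.043 to 0.39, Cox7b2 -0.018 to 0.072, Cox8c -0.013 to 0.17, Sdhc -0.063 to 0.20, Sdhd -0.065 to 0.12, Ndufaf7 -0.14 to 0.026, Atp5g2 -0.13 to 0.10, Atp5h -0.21 to 0.11, Cox7b -0.10 to 0.26 and Ndufa11 -0.065 to 0.090. None of these genes passed the adjusted threshold under any alternative run. The cause was not tested. With 3 arrays per genotype, the median standard error of a subunit's difference was 0.13 on the log2 scale, which limits the size of change these arrays can show.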
